A study of Mus musculus with 59 samples.

Results

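The clustered protocadherin genes were examined by RNA-seq in 6 mouse embryonic stem cell (ESC) lines with conditional alleles (59 libraries). The members were every gene whose symbol begins with *Pcdha*, *Pcdhb*, *Pcdhga*, *Pcdhgb* or *Pcdhgc* followed by a number or a C-type number, which gave 59 of 24391 listed genes. They comprise 15 alpha genes, of which *Pcdha7-g* has a row of its own in the files, 22 beta genes and 22 gamma genes. All 3 clusters lie on the plus strand of chromosome 18 (mm9), with alpha at 37089939 to 37347311, beta at 37424652 to 37681073 and gamma at 37833989 to 38001527.

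Clustered protocadherins are cell surface cadherin-like proteins best known from neurons, where each cell switches on a small, varying set of them and cells use the set to tell themselves from others. In the alpha and gamma clusters each variable exon has its own promoter and is spliced to constant exons shared by the whole cluster, whereas beta genes consist of a variable exon alone. CTCF and cohesin act on promoter choice, and DNA methylation and repressive chromatin keep the promoters not chosen silent. The C-type genes at the 3′ ends of the alpha and gamma arrays (*Pcdhac1*, *Pcdhac2*, *Pcdhgc3*, *Pcdhgc4* and *Pcdhgc5*) are expressed less selectively.

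ESCs were kept on embryonic fibroblast feeders with LIF and 3 inhibitors (3i), and embryoid bodies (EBs) were formed in suspension for 2 days without them. Every line carries ERT2-Cre, so that 4-OHT deletes or converts the conditional alleles, and controls are the same lines without 4-OHT. The *Pcgf1* line (*Pcgf1* f/f, deleted to delta/delta with 4-OHT, here *Pcgf1*-KO) has 4 control ESC, 5 *Pcgf1*-KO ESC, 5 control EB and 5 *Pcgf1*-KO EB libraries. PCGF1 is the subunit that defines the variant PRC1 complex PRC1.1. The *Ring1A*-pm; *Ring1B*-cpm line carries point-mutant *Ring1a* alleles in all groups, and 4-OHT leaves *Ring1b* as the point mutant too, whereas the *Ring1A/B* line lacks *Ring1a* in all groups and loses *Ring1b*. RING1A and RING1B are the E3 ubiquitin ligases of PRC1. These lines and the *Pcgf2/4*, *Pcgf3/5* and *Pcgf6* lines have 8 libraries each, 2 for each combination of stage and 4-OHT. By the study's methods 4-OHT was given ahead of EB formation for the *Pcgf* genes other than *Pcgf6*, and together with EB formation for *Pcgf6* and *Ring1A/B*.

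In the *Pcgf1* line *Pcgf1* itself stood at 7.30 to 16.6 TPM (transcript abundance scaled to the same sum in every library) in the 9 control libraries and at 0.634 to 2.77 TPM in the 10 *Pcgf1*-KO libraries, without overlap. Naive ESC marker genes summed to 3197 to 4745 TPM in control ESCs and to 309 to 679 TPM in control EBs. File names and sample labels give the same condition throughout the *Pcgf1* and *Ring1A*-pm; *Ring1B*-cpm lines, but not for 21 of the 32 libraries of the remaining lines. The first account below therefore rests on those 27 libraries, and the groups of the other lines are given as labelled. The depth of the libraries is unknown, and 6039 to 9139 genes per library were listed at 0 TPM. Nothing in the labels says that same-group libraries came from separate cultures, so *p*-values measure only the spread between these libraries, which may be technical.

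The gamma cluster supplied nearly all clustered protocadherin RNA in these cells. Over the 59 libraries the gamma genes summed to 1.51 to 45.8 TPM (median 12.2), the beta genes to 0 to 3.33 TPM (median 0.295) and the alpha genes to 0 to 1.95 TPM (median 0.114). Gamma genes made up 77.0 to 99.8% of the sum of all members. A library had a median of 21 of 22 gamma genes above 0, against 4 of 22 beta genes and 2 of 15 alpha genes. The alpha genes *Pcdha4*, *Pcdha6*, *Pcdha7* and *Pcdha7-g* were at 0 in every library. A level of 1 TPM was reached in some library by 18 gamma genes, by *Pcdhb17* among beta genes and by *Pcdhac2* among alpha genes. The smallest values above 0 were 0.0154 to 0.109 TPM in the 27 libraries, so a beta or alpha gene at 0 cannot be told from one present at a few hundredths of a TPM.

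**Figure D1:**
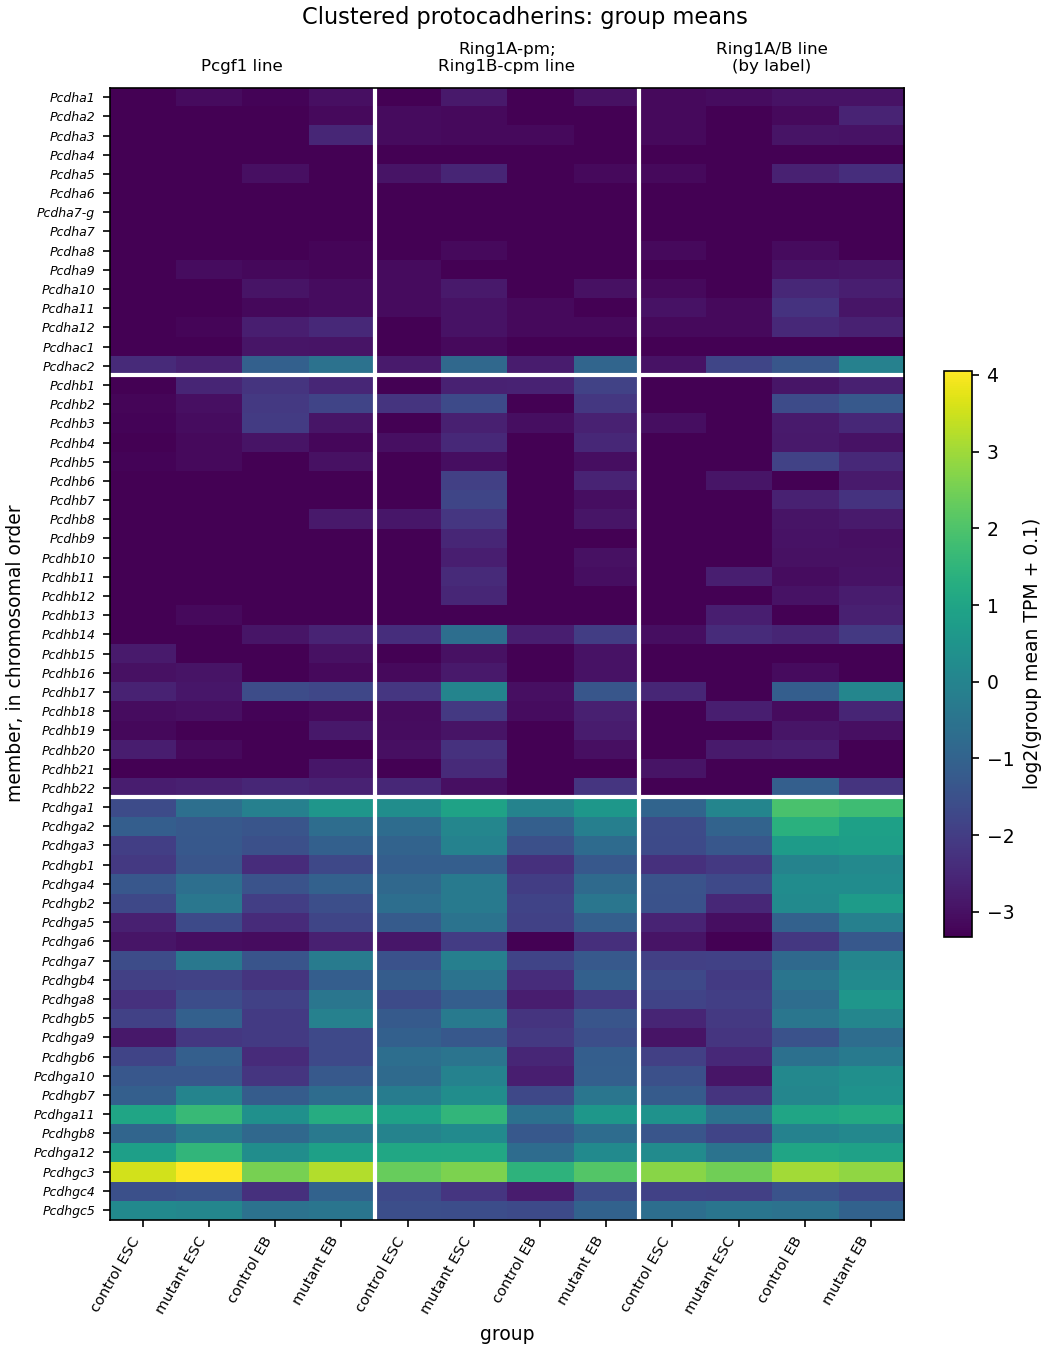
Group mean level of each of the 59 members, as log2(group mean TPM + 0.1) in colour, with members in chromosomal order on the vertical axis and the groups of the *Pcgf1*, *Ring1A*-pm; *Ring1B*-cpm and *Ring1A/B* lines on the horizontal axis. Most alpha and beta rows are dark, and *Pcdhac2* and *Pcdhb17* have the highest means of their clusters over all libraries. *Pcdhgc3* is the brightest row, and *Pcdhga11* and *Pcdhga12* have the next highest means over all libraries, though not in every group.

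Within the gamma cluster the level lay mostly at the 3′ end of the array. Over the 27 libraries *Pcdhgc3* averaged 8.84 TPM, *Pcdhga11* 1.97 TPM and *Pcdhga12* 1.71 TPM, and the next gene, *Pcdhga1* at the other end of the array, averaged 0.929 TPM. The other C-type gamma genes were lower, with *Pcdhgc5* at 0.637 TPM and *Pcdhgc4* at 0.226 TPM. *Pcdhgc3*, *Pcdhga11* and *Pcdhga12* together made up 49.3 to 81.2% of the gamma sum in the *Pcgf1* line and 38.3 to 54.7% in the *Ring1A*-pm; *Ring1B*-cpm line. Over all 59 libraries their share was 2.32 to 81.2% (median 52.9%). The GENCODE annotation of mm9 used for this holds 10 gamma transcripts, fewer than the 22 gamma genes of the deposited values. All 10 share an exon start among their last exons, and a median of 45.0% of the exonic bases of a transcript lies in exons shared with another. In the alpha cluster this median is 16.2% and in the beta cluster 0. How the deposited values divide reads of the shared exons is not given in the sources used here, so single gamma genes are uncertain to that extent and do not vary independently.

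In the *Pcgf1* line the gamma sum was higher in *Pcgf1*-KO cells than in the same-numbered control at both stages, and lower in EBs than in ESCs. In ESCs the controls, replicates 1 to 4, stood at 10.7, 25.6, 26.5 and 17.2 TPM, and *Pcgf1*-KO replicates 1 to 5 at 16.3, 45.8, 42.8, 23.8 and 23.0 TPM. In EBs, replicates 1 to 5 of the controls stood at 7.82, 14.6, 18.5, 11.2 and 10.9 TPM and those of *Pcgf1*-KO at 11.2, 29.7, 33.7, 17.5 and 18.1 TPM. The groups overlapped at both stages, with and without replicates 2 and 3, which were the highest in every group. Replicates 2 and 3 also listed the most genes at 0 TPM (8409 to 9139, against 6241 to 8164 in the other libraries of this line). Their smallest member values above 0 were 0.0846 to 0.109 TPM, against 0.0154 to 0.0540 TPM in the others. The identifiers of replicates 2 and 3 share a library series that replicate 1 and replicates 4 and 5 do not, and each series holds all 4 groups except that control ESCs have no replicate 5.

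Within same-numbered pairs the *Pcgf1*-KO gamma sum was 1.39 to 1.79 times the control in ESCs (4 of 4 pairs) and 1.43 to 2.04 times the control in EBs (5 of 5 pairs). Each pair had 14 to 19 of the 22 gamma genes higher in *Pcgf1*-KO ESCs and 16 to 22 higher in *Pcgf1*-KO EBs. From ESCs to EBs the gamma sum was 0.569 to 0.734 times as high in control pairs (4 of 4 lower) and 0.649 to 0.788 times in *Pcgf1*-KO pairs (5 of 5 lower). A lower sum in bulk RNA cannot distinguish fewer expressing cells from less RNA per cell. The means were 20.0 ± 7.48 TPM (SD, n = 4) in control and 30.3 ± 13.1 TPM (n = 5) in *Pcgf1*-KO ESCs, and 12.6 ± 4.07 TPM (n = 5) in control and 22.05 ± 9.35 TPM (n = 5) in *Pcgf1*-KO EBs.

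**Figure D2:**
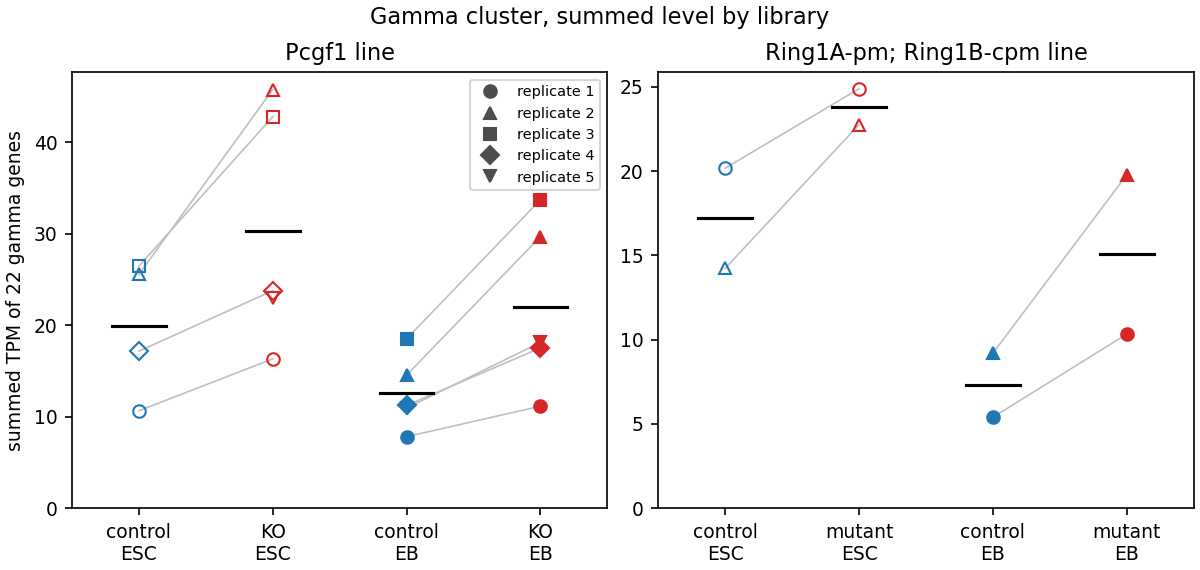
Summed TPM of the 22 gamma genes in each library of the *Pcgf1* line (left) and the *Ring1A*-pm; *Ring1B*-cpm line (right), with open symbols for ESCs, filled symbols for EBs, blue for control, red for mutant, grey lines joining same-numbered libraries at a stage and bars for the group means. Every grey line rises from control to mutant, and the *Pcgf1* line reaches 45.8 TPM in a *Pcgf1*-KO ESC library.

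Single genes were tested with limma on log2(TPM + 0.1), a scale that understates changes of low genes, and *p*-values were adjusted (Benjamini-Hochberg) over every gene that was above 0 in some library of the same line. In the *Pcgf1* line 49 members were tested (11 alpha, 16 beta and 22 gamma genes) and the other 10 were at 0 throughout. Of the 49, 7 low alpha and beta genes were above 0 in 1 group only (5 of them in *Pcgf1*-KO EBs), so that they were tested only because of that group, and counts are also given over the other 42. A gene was called at an adjusted *p* under 0.05. Same-numbered libraries of this line deviated together, so the values of a limma fit with the replicate number as a block are given beside those without it.

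Between *Pcgf1*-KO and control EBs all 22 gamma genes had a log2 fold change above 0 by limma, with a median of 0.63 against -0.03 for all genes tested. The median was 0.04 for the 16 beta genes tested and 0.08 for the 11 alpha genes tested. A single member, *Pcdhgb5*, rose by the unblocked test (2.04% of the 49 members, against 1.95% of all genes called in either direction and 1.08% called higher), and 8 members had an unadjusted limma *p* under 0.05, all higher in *Pcgf1*-KO EBs (16.3% of members, against 12.0% of all genes), or 7 of the 42. With the block 6 of the 42 members rose and 0 fell, the gamma genes *Pcdhgb4*, *Pcdhga8*, *Pcdhgb5*, *Pcdhgb6*, *Pcdhga11* and *Pcdhgc3*, which is 14.3% called higher against 4.83% of all genes (10.4% in either direction). *Pcdha3*, above 0 in *Pcgf1*-KO EBs only, was called too and is left out of this share.

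*Pcdhgb5*, a B-type gamma gene, stood at 0.0637, 0.128, 0.125, 0.263 and 0.101 TPM in control EBs and at 0.189, 0.787, 1.68, 0.824 and 0.774 TPM in *Pcgf1*-KO EBs. The *Pcgf1*-KO library was higher in 5 of 5 pairs, by 2.97 to 13.4 times, and the groups overlapped only through *Pcgf1*-KO replicate 1, which lay below control replicate 4. The log2 fold change was 1.85 ± 0.43 (SE; adjusted *p* = 0.0314 by limma) and 1.85 ± 0.35 with the block (adjusted *p* = 0.0034). Without the block the call was lost on leaving out control replicate 1, 2, 3 or 5 or *Pcgf1*-KO replicate 2, 3, 4 or 5 (limma adjusted *p* of 0.0570 to 0.0802), and without the library series of replicates 2 and 3 the log2 fold change was 1.43 (limma adjusted *p* = 0.25).

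*Pcdhgc3*, the C-type gene with the highest level of all members, stood at 4.67, 7.18, 7.99, 5.18 and 3.74 TPM in control EBs and at 5.43, 13.6, 11.7, 7.58 and 7.27 TPM in *Pcgf1*-KO EBs. In ESCs it stood at 6.63, 16.6, 14.7 and 8.50 TPM in controls and at 9.76, 25.8, 24.5, 11.7 and 11.0 TPM in *Pcgf1*-KO replicates 1 to 5. The *Pcgf1*-KO library was the higher of every pair, by 1.16 to 1.95 times in 5 EB pairs and 1.38 to 1.67 times in 4 ESC pairs, although the groups overlapped at both stages. In EBs the log2 fold change was 0.63 ± 0.35 (adjusted *p* = 0.535 by limma) without and 0.63 ± 0.13 (adjusted *p* = 0.0051 by limma) with the block. In ESCs it was 0.48 ± 0.37 (adjusted *p* = 0.838 by limma) without and 0.58 ± 0.14 (adjusted *p* = 0.0226 by limma) with the block.

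Of the other genes called with the block in EBs, *Pcdhgb4* separated the groups, with controls at 0, 0.259, 0, 0.159 and 0.170 TPM and *Pcgf1*-KO at 0.305, 0.496, 0.319, 0.394 and 0.288 TPM (log2 fold change 1.25 ± 0.30 with the block, limma adjusted *p* = 0.0156; 0.151 without). *Pcdhga8* was at 0 to 0.36 TPM in control EBs and at 0.289 to 1.21 TPM in *Pcgf1*-KO EBs, higher in 5 of 5 pairs (1.51 ± 0.34 with the block, limma adjusted *p* = 0.011; 0.147 without). *Pcdhga11* was higher in 5 of 5 pairs by 1.36 to 2.66 times, with controls at 0.550, 1.85, 2.17, 0.858 and 0.646 TPM and *Pcgf1*-KO at 1.23, 3.11, 4.24, 1.17 and 1.72 TPM. These libraries overlapped, and its blocked log2 fold change was 0.88 ± 0.22 (limma adjusted *p* = 0.0209; 0.494 without the block). *Pcdha3* was at 0 in every *Pcgf1*-line library except *Pcgf1*-KO EB replicates 1 to 4, which held 0.0654, 0.0850, 0.182 and 0.0375 TPM. The other C-type gamma genes were not called, with *Pcdhgc4* at 1.29 ± 0.47 (limma adjusted *p* = 0.214; 0.0651 with the block) and *Pcdhgc5* at 0.00 ± 0.38.

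**Figure D3:**
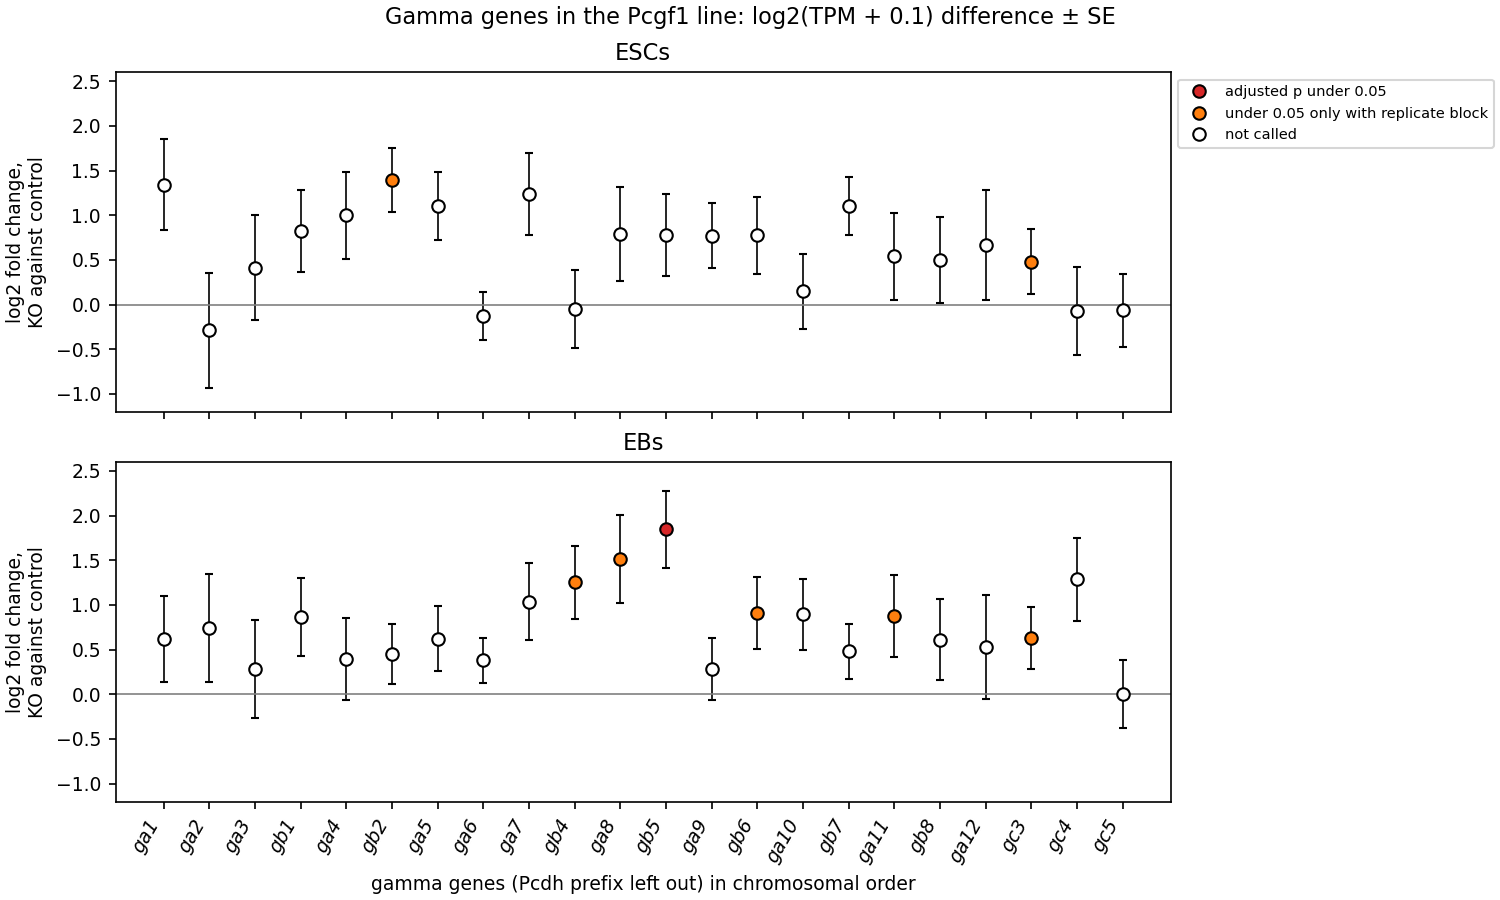
Difference between *Pcgf1*-KO and control libraries in log2(TPM + 0.1) for the 22 gamma genes in chromosomal order, in ESCs (top) and EBs (bottom), with bars of ± SE from the limma fit without a block. All 22 points lie at or above 0 in EBs with *Pcdhgb5* the highest at 1.85, and in ESCs 17 of 22 lie above 0.

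In ESCs 17 of 22 gamma genes had a log2 fold change above 0 between *Pcgf1*-KO and control, with a median of 0.72 against -0.02 for all genes tested. For the tested beta and alpha genes the medians were 0.02 and 0.00. Limma called 0 members without the block (0.641% of all genes were called), and 6 gamma genes had an unadjusted *p* under 0.05, all higher (8.63% of all genes). With the block *Pcdhgb2* and *Pcdhgc3* rose, which is 4.08% of members called higher against 2.53% of all genes (5.31% in either direction). *Pcdhgb2* stood at 0.0483, 0.275, 0.245 and 0.245 TPM in control ESCs and at 0.525, 0.799, 0.711, 0.588 and 0.661 TPM in *Pcgf1*-KO ESCs, so that the groups did not overlap. Its log2 fold change was 1.40 ± 0.36 (limma adjusted *p* = 0.0933) and 1.41 ± 0.31 with the block (adjusted *p* = 0.0163). *Pcdhgb7* also separated the groups, with controls at 0.197 to 0.468 TPM and *Pcgf1*-KO at 0.537 to 1.22 TPM, and missed the threshold in both fits (limma adjusted *p* = 0.175 and 0.0505). Whether the change with *Pcgf1* loss differed between stages was tested as an interaction. It gave 0 calls by limma (0.00486% of all genes), 3 members had an unadjusted *p* under 0.05 (5.8% of all genes), and for *Pcdhgc3* the difference was 0.15 ± 0.50.

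Between control EBs and control ESCs 1 of the 49 members was called. *Pcdhga1*, the first gene of the gamma array, rose, and no other member was called without the block (2.04% of members, against 24.9% of all genes in either direction and 11.5% higher). It stood at 0.0986, 0.187, 0 and 0.608 TPM in ESC replicates 1 to 4 and at 0.318, 0.767, 0.875, 1.21 and 0.973 TPM in EB replicates 1 to 5, higher in 4 of 4 pairs, with overlapping groups. Its log2 fold change was 1.79 ± 0.51 (limma adjusted *p* = 0.014). Without control ESC replicate 3 it was 1.34 (limma adjusted *p* = 0.0638), and without the library series of replicates 2 and 3 it was 1.16 (limma adjusted *p* = 0.245). With the block *Pcdhga1* and *Pcdhac2* rose and *Pcdhgb6*, *Pcdhga11* and *Pcdhgc3* fell, against 43.9% of all genes called.

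*Pcdhgc3*, with the values given above, was lower in the EB library of 4 of 4 control pairs (0.433 to 0.705 times) and of 5 of 5 *Pcgf1*-KO pairs (0.478 to 0.662 times). The log2 fold change of EBs over ESCs was -0.96 ± 0.37 in controls (limma adjusted *p* = 0.0664; -0.85 ± 0.14 and 1.33e-04 with the block) and -0.81 ± 0.35 in *Pcgf1*-KO cells (limma adjusted *p* = 0.125; -0.81 ± 0.13 and 1.45e-04 with the block). Its share of the gamma sum was 49.5 to 64.9% in control ESCs and 34.1 to 59.8% in control EBs. As *Pcdhga1* and *Pcdhgc3* moved in opposite directions in the blocked fit, no single direction held for the cluster, and the median log2 fold change of the 22 gamma genes was -0.22 in controls and 0.04 in *Pcgf1*-KO cells, against 0.00 for all genes.

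In *Pcgf1*-KO cells *Pcdhac2* rose from ESCs to EBs and *Pcdhgb2* fell, which is 4.76% of the 42 members against 18.3% of all genes. With the block *Pcdhgb4* and *Pcdhga8* also rose and *Pcdhgb7*, *Pcdhga12* and *Pcdhgc3* also fell, 16.7% of the 42 against 36.8% of all genes. *Pcdha3* was called in both fits, having entered them through *Pcgf1*-KO EBs. *Pcdhac2*, the C-type alpha gene that supplied most alpha RNA, stood at 0.0448, 0.0853, 0.101, 0.0279 and 0.0332 TPM in *Pcgf1*-KO ESCs and at 0.189, 0.984, 1.41, 0.217 and 0.170 TPM in *Pcgf1*-KO EBs, without overlap. Its log2 fold change was 1.76 ± 0.55 (limma adjusted *p* = 0.0308), and the call was lost without *Pcgf1*-KO ESC replicate 1, 4 or 5 or *Pcgf1*-KO EB replicate 2 or 3 (limma adjusted *p* of 0.0592 to 0.0931). In controls *Pcdhac2* was at 0.124, 0, 0.105 and 0.105 TPM in ESCs and at 0.266, 0.535, 0.941, 0.0878 and 0.0561 TPM in EBs, with overlap (1.09 ± 0.58, limma adjusted *p* = 0.198; 1.29 ± 0.47 and 0.0373 with the block). *Pcdhgb2* was at 0.185, 0.288, 0.411, 0.127 and 0.199 TPM in *Pcgf1*-KO EBs, below all *Pcgf1*-KO ESC libraries (-1.19 ± 0.34, limma adjusted *p* = 0.018). The log2 fold change of *Pcdha3* was 0.71 ± 0.20 (limma adjusted *p* = 0.0173) and, without the library series of replicates 2 and 3, 0.40 (limma adjusted *p* = 0.166).

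The alpha and beta sums of the *Pcgf1* line reached their highest values in EBs. In controls the alpha sum was 0 to 0.124 TPM in ESCs and 0.133 to 1.05 TPM in EBs, and in *Pcgf1*-KO cells 0.057 to 0.182 TPM and 0.239 to 1.95 TPM. The beta sum in controls was 0 to 0.652 TPM in ESCs and 0.073 to 1.59 TPM in EBs, and in *Pcgf1*-KO cells 0 to 0.599 TPM and 0.115 to 2.09 TPM. In EBs the alpha sum separated from same-genotype ESCs and the beta sum did not. In controls the nearest alpha sums were 0.124 TPM (ESC replicate 1) and 0.133 TPM (EB replicate 4). Their distance is less than the smallest member value above 0 in either library (0.0444 and 0.0454 TPM). No beta gene was called in any comparison of this line, with or without the block.

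**Figure D4:**
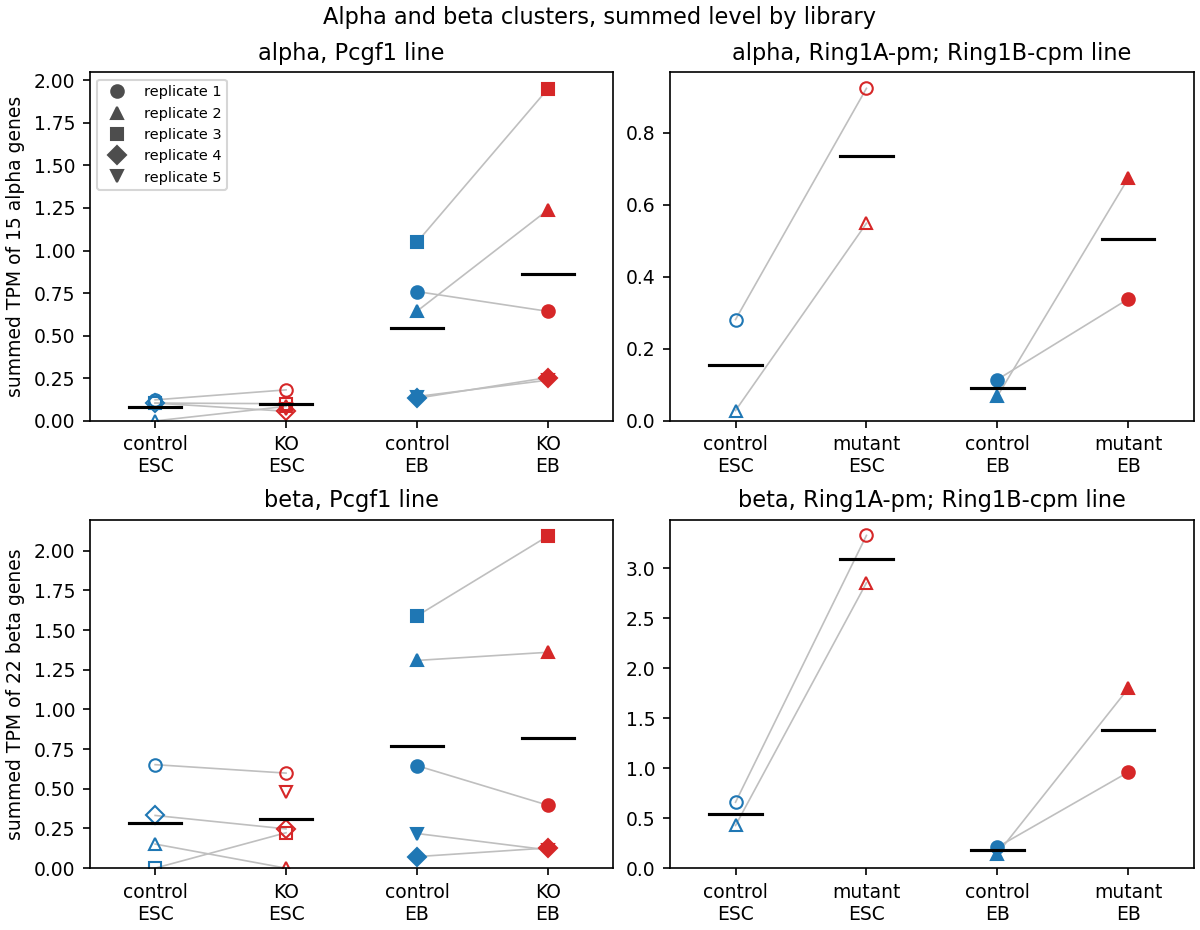
Summed TPM of the 15 alpha genes (top) and 22 beta genes (bottom) in each library of the *Pcgf1* line (left) and the *Ring1A*-pm; *Ring1B*-cpm line (right), drawn as in the plot of gamma sums, with a separate vertical scale in each panel. In the *Pcgf1* line the EB libraries reach 1.95 TPM for alpha and 2.09 TPM for beta genes, and in the point-mutant line the 2 mutant ESC libraries have the highest beta sums, 3.33 and 2.85 TPM.

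Markers of other cells were measured in the same libraries. A list of 14 feeder fibroblast genes, including *Col1a1* and *Thy1*, had sums of 240 to 318 TPM (control ESCs), 187 to 255 TPM (*Pcgf1*-KO ESCs), 49.98 to 98.7 TPM (control EBs) and 16.4 to 34.3 TPM (*Pcgf1*-KO EBs). The sum of these markers was thus lower in the EB groups, as the gamma sum was. It was also lower in *Pcgf1*-KO than in control EBs, whereas the gamma sum was higher within pairs. Of the 14 genes 0 were called between *Pcgf1*-KO and control ESCs. In *Pcgf1*-KO EBs 2 fell, *Thy1* and *Mmp2* (-2.69 ± 0.30 and -1.50 ± 0.23, limma adjusted *p* = 2.23e-04 and 0.00233). Between control EBs and ESCs 3 rose, *Thy1* and *Mmp2* among them, and 7 fell, *Col1a1* among them. The genes of this list thus did not move together. For 14 neural genes the sums were 168 to 287 TPM (control ESCs), 173 to 262 TPM (*Pcgf1*-KO ESCs), 133 to 210 TPM (control EBs) and 212 to 253 TPM (*Pcgf1*-KO EBs), and 0 were called between *Pcgf1*-KO and control EBs. The sums overlapped between stages, whereas 6 neural genes rose and 1 fell from control ESCs to EBs (median log2 fold change 1.25), and 7 rose and 0 fell in *Pcgf1*-KO cells (median 0.96). The postmitotic neuron gene *Dcx* was among those that rose in controls (1.25 ± 0.28, limma adjusted *p* = 0.00271). *Stmn2* of the same list was the 1 that fell (-2.01 ± 0.47, limma adjusted *p* = 0.00372).

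Naive ESC markers moved in the direction of the gamma sum between stages and, by their median, in *Pcgf1*-KO EBs, but not in *Pcgf1*-KO ESCs. The 9 naive ESC genes had sums of 309 to 679 TPM (control EBs) and 424 to 1302 TPM (*Pcgf1*-KO EBs), with overlap, and *Tfcp2l1* and *Nr0b1* of them rose (1.52 ± 0.34 and 1.26 ± 0.22, limma adjusted *p* = 0.0237 and 0.00492; list median 1.26). The 7 EB and epiblast genes found, which include *Dnmt3b*, summed to 1138 to 3128 TPM and 374 to 1871 TPM, also with overlap, and 0 were called (median -1.198). Between *Pcgf1*-KO and control ESCs 0 naive genes were called (median -0.07) and 1 epiblast gene, *Otx2*, fell. From control ESCs to EBs all 9 naive genes fell and all 7 epiblast genes rose. The part of these cell types and of stage in the protocadherin values was not tested.

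The genes that act with the clusters were counted as lists. Of 27 tested regulators of protocadherin promoter choice, among them CTCF, cohesin and DNA methylation genes, *Dnmt3l*, a cofactor of de novo DNA methyltransferases, rose in *Pcgf1*-KO EBs (1.34 ± 0.25, limma adjusted *p* = 0.00725) and 0 were called in *Pcgf1*-KO ESCs. From ESCs to EBs of controls 3 of these regulators rose and 3 fell, with *Dnmt3b*, the methyltransferase that acts on protocadherin promoters, up by 5.34 ± 0.53 (limma adjusted *p* = 1.07e-06). Of all genes 24.9% were called in either direction from control ESCs to EBs. With *Pcgf1* loss 0.641% of all genes were called in ESCs and 1.95% in EBs. Of 16 signalling partners, such as the kinases and actin regulators that bind protocadherin tails, 2 rose and 1 fell from control ESCs to EBs and 0 were called between *Pcgf1*-KO and control at either stage. Of 13 tested genes that neighbour the clusters on the chromosome 3 rose from control ESCs to EBs (*Wdr55*, *Rell2* and *Arap3*), and 0 were called with *Pcgf1* loss. Of 12 tested non-clustered protocadherin genes 1, *Pcdh1*, rose from control ESCs to EBs by 5.22 ± 0.70 (limma adjusted *p* = 2.63e-05) and 0 were called with *Pcgf1* loss. The medians of these lists between *Pcgf1*-KO and control EBs were -0.12 to 0.05, and 0.63 for the gamma genes.

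In the *Ring1A*-pm; *Ring1B*-cpm line, the sums of all 3 clusters were higher with 4-OHT at both stages. The gamma sum was 20.2 and 14.2 TPM in control ESCs, 24.9 and 22.8 TPM in mutant ESCs, 5.40 and 9.20 TPM in control EBs and 10.3 and 19.8 TPM in mutant EBs. Mutant libraries stood above the controls of the same stage without overlap, by 1.23 to 1.60 times in ESC pairs and 1.92 to 2.15 times in EB pairs. The EB library was lower in both pairs of controls (0.267 to 0.646 times) and of mutants (0.415 to 0.869 times). The beta sum was 0.66 and 0.43 TPM in control ESCs and 3.33 and 2.85 TPM in mutant ESCs, and 0.21 and 0.15 TPM in control EBs and 0.96 and 1.80 TPM in mutant EBs. Both mutant ESC libraries had 18 beta genes above 0, against 6 and 7 in control ESCs. Over all 24391 listed genes fewer were at 0 in mutant ESCs too (6336 and 6543, against 7048 and 7342 in control ESCs). The alpha sum was 0.281 and 0.029 TPM in control and 0.923 and 0.549 TPM in mutant ESCs, and 0.115 and 0.069 TPM in control and 0.339 and 0.674 TPM in mutant EBs.

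With 2 libraries per group, limma called 0 of the 54 members tested in all 5 comparisons of this line. Between mutant and control ESCs 10 members had an unadjusted *p* under 0.05, all higher (1 alpha, 8 beta and 1 gamma gene), against 16.7% of all genes. Leaving out 6 members that were above 0 in 1 group of the line only, 7 of 48 had such a *p*, and 2.54% of all genes were called at the adjusted threshold. Between mutant and control EBs it was also 10, all higher (1 alpha, 2 beta and 7 gamma genes), against 20.7% of all genes, with 4.53% called. The median log2 fold change with 4-OHT was 0.77 for beta and 0.54 for gamma genes in ESCs (0.12 for all genes tested), and 0.33 for beta and 0.92 for gamma genes in EBs (0.10 for all genes). Between EBs and ESCs 10 gamma genes in controls had an unadjusted limma *p* under 0.05, all lower, as had 6 beta and 3 gamma genes in mutants. Without the 6 members above 0 in 1 group only, 10 of 48 in controls and 6 of 48 in mutants had such a *p*. Some of these 6 members, such as *Pcdhb9*, were above 0 in mutant ESCs only. Of all genes 20.3% and 9.73% had such a *p*, and 4.73% and 0.133% were called. The gamma medians were -1.07 in controls and -0.66 in mutants, against 0.00 for all genes. The interaction had 2 members with an unadjusted limma *p* under 0.05 (5.31% of all genes) and 0 called (0.00986% of all genes).

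*Pcdhb17*, the beta gene with the highest level, stood at 0.15 and 0.10 TPM in control ESCs, 1.06 and 0.76 TPM in mutant ESCs, 0.05 and 0 TPM in control EBs and 0.21 and 0.37 TPM in mutant EBs. Its log2 fold change was 2.17 ± 0.44 in ESCs (limma adjusted *p* = 0.0532) and 1.67 ± 0.44 in EBs (limma adjusted *p* = 0.0817), without overlap at either stage. *Pcdhac2* also separated the groups at both stages, with 0.0611 and 0.0289 TPM in control and 0.609 and 0.325 TPM in mutant ESCs, and 0.0280 and 0.0686 TPM in control and 0.206 and 0.645 TPM in mutant EBs (limma adjusted *p* = 0.118 and 0.126). *Pcdhb14* was at 0.145 and 0.0455 TPM in control and 0.567 and 0.512 TPM in mutant ESCs (1.76 ± 0.60, limma adjusted *p* = 0.185). *Pcdhgc3* was at 5.80 and 4.14 TPM in control and 6.41 and 5.63 TPM in mutant ESCs, and at 1.46 and 3.81 TPM in control and 2.29 and 5.90 TPM in mutant EBs, so that its groups overlapped at both stages. Its log2 fold change was 0.29 ± 0.56 in ESCs and 0.62 ± 0.56 in EBs (limma adjusted *p* = 0.894 and 0.587). Among genes lower in EBs, *Pcdhgb6* stood at 0.601 and 0.468 TPM in control ESCs and at 0.0649 and 0.0794 TPM in control EBs (-1.88 ± 0.42, limma adjusted *p* = 0.0519).

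The feeder fibroblast list summed to 50.03 to 53.3 TPM in control and 93.5 to 97.4 TPM in mutant ESCs, and to 54.3 to 74.2 TPM in control and 98.9 to 109 TPM in mutant EBs of this line, so it was higher in mutants than in controls of the same stage, as the gamma sum was. Between stages it was not lower in EBs, where the gamma sum was lower. Of its 14 genes 0 were called in ESCs (median 0.70) and 4 rose in EBs (median 1.01). *Col1a1*, 1 of several collagen genes in the list, was at 6.98 and 5.56 TPM in control and 16.3 and 11.3 TPM in mutant ESCs. Of the low genes *Fap* and *Lum* were at 0 in all 4 of these libraries. The neural list was at 517 to 581 TPM in control and 400 to 438 TPM in mutant ESCs, where 2 of 14 genes rose, and at 267 to 325 TPM in control and 342 to 377 TPM in mutant EBs, where 2 of 14 rose. The naive ESC genes summed to 933 to 1191 TPM in control and 1798 to 1900 TPM in mutant EBs, without overlap, with 3 of 9 called higher. The EB and epiblast genes summed to 529 to 794 TPM in control and 179 to 192 TPM in mutant EBs, with 4 called lower and 1 higher. In mutant ESCs 1 naive gene fell and 2 epiblast genes rose. The part of these lists in the protocadherin values was not tested. Among the other lists, the receptor tyrosine kinase gene *Ret* rose in mutant ESCs (2.82 ± 0.45, limma adjusted *p* = 0.0278) and mutant EBs (2.86 ± 0.45, limma adjusted *p* = 0.02), the neighbouring gene *Arap3* rose in mutant ESCs (1.75 ± 0.35, limma adjusted *p* = 0.0495), and *Dnmt3a* and the cohesin gene *Stag2* fell in mutant EBs by 1.02 ± 0.19 and 1.07 ± 0.17 (limma adjusted *p* = 0.0326 and 0.021). The 12 tested non-clustered protocadherin genes had medians of 1.06 in ESCs and 0.52 in EBs with 0 called by limma.

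In the *Ring1A/B* line the labels and the deposited names disagree for 4 of 8 libraries. The 2 libraries labelled mutant ESC are named control EB, and the 2 labelled control EB are named mutant ESC. The markers stood with the names, since the naive ESC list summed to 485 to 493 TPM in the libraries labelled mutant ESC and to 3156 to 3217 TPM in those labelled control EB. The gamma sum was 13.7 and 12.2 TPM in libraries labelled control ESC, 10.1 and 11.1 TPM in those labelled mutant ESC, 29.3 and 30.7 TPM in those labelled control EB and 32.7 and 31.5 TPM in those labelled mutant EB. The last 2 pairs of libraries, all of which carry mutant in their deposited names, thus held over 29 TPM and the other 4 under 14 TPM. Arranged by name and without a test, the gamma sum was 12.2 to 13.7 TPM in control ESCs, 10.1 to 11.1 TPM in control EBs, 29.3 to 30.7 TPM in mutant ESCs and 31.5 to 32.7 TPM in mutant EBs.

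By label, 20 of 53 members rose and 0 fell between libraries labelled control EB and control ESC (37.7% higher, against 28.6% of all genes higher and 43.2% in either direction), which were 15 gamma, 4 beta and 1 alpha gene. Between those labelled mutant EB and mutant ESC 25 rose and 0 fell (47.2%, against 36.6% higher and 56.5% in either direction), of which 20 were gamma, 3 beta and 2 alpha genes. By name the first of these comparisons sets mutant against control ESCs and the second mutant against control EBs. The gamma medians were 1.31 and 1.99, against 0.12 and 0.20 for all genes. Leaving out the library labelled control ESC replicate 2 lowered the first count to 12, and keeping only genes with a mean of at least 1 TPM left 3 and 5. That filter takes most members out before the test, as only 3 of the 59 had such a mean over all libraries. The lower counts are thus not all calls lost by members still tested. In the first comparison, 7 gamma genes did not pass, and they included *Pcdhga11*, *Pcdhga12*, *Pcdhgc3*, *Pcdhgc4* and *Pcdhgc5* of the 3′ end.

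The genes with the largest differences lay at the other end of the array. *Pcdhga1* stood at 0.48 and 0.37 TPM in libraries labelled control ESC, 0.73 and 1.14 TPM in those labelled mutant ESC, 3.47 and 3.96 TPM in those labelled control EB and 3.74 and 2.92 TPM in those labelled mutant EB. *Pcdhga2* stood at 0.26 and 0.18 TPM in libraries labelled control ESC, 0.33 and 0.48 TPM in mutant ESC, 2.12 and 2.81 TPM in control EB and 1.85 and 1.62 TPM in mutant EB. The 4 libraries labelled EB were the highest for both genes, without overlap. Between libraries labelled control EB and control ESC the log2 fold changes were 3.00 ± 0.31 for *Pcdhga2* (limma adjusted *p* = 2.34e-04), 2.87 ± 0.28 for *Pcdhga1* (limma adjusted *p* = 2.01e-04) and 2.41 ± 0.52 for *Pcdhga3* (limma adjusted *p* = 0.0078). *Pcdhgc3* stood at 6.88 and 6.46 TPM, 5.40 and 5.43 TPM, 7.94 and 8.24 TPM, and 6.82 and 7.36 TPM (0.28 ± 0.10, limma adjusted *p* = 0.0591). For *Pcdhga3* the call was lost on leaving out any of the 4 libraries compared (limma adjusted *p* of 0.0573 to 0.0869).

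Between libraries labelled mutant EB and mutant ESC the leading members were *Pcdhb17* (3.32 ± 0.43), *Pcdhga10* (3.29 ± 0.42) and *Pcdhgb2* (3.23 ± 0.30), with limma adjusted *p* of 3.67e-04, 3.49e-04 and 6.88e-05. *Pcdhb17* was at 0 in both libraries labelled mutant ESC and at 0.654 and 1.22 TPM in those labelled mutant EB. *Pcdhgb2* was at 0.0651 and 0.0859 TPM against 1.54 and 1.55 TPM, and *Pcdhga10* at 0.0665 and 0 TPM against 1.04 and 1.30 TPM. *Pcdhgc3* rose as well, by 0.38 ± 0.10 (limma adjusted *p* = 0.0127), whereas *Pcdhgc4* (0.28 ± 0.41) and *Pcdhgc5* (-0.54 ± 0.39) were the 2 gamma genes not called.

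**Figure D5:**
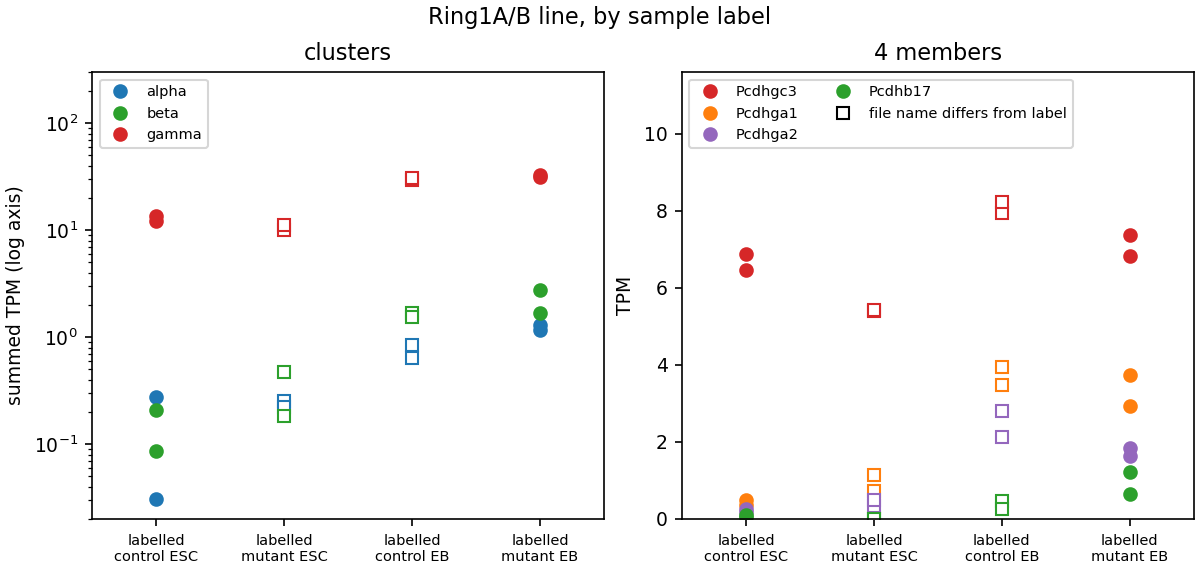
Libraries of the *Ring1A/B* line by sample label, with summed TPM of the clusters on a log axis (left) and TPM of 4 members (right). Filled circles mark libraries whose file name gives the same condition and open squares those whose name differs. The gamma sum is near 30 TPM in the 4 libraries labelled EB, and *Pcdhga1* and *Pcdhga2* differ between groups by more than *Pcdhgc3* does.

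Between libraries labelled mutant and control ESC of this line 2 members rose and 4 fell (11.3% of members, against 48.8% of all genes in either direction). *Pcdhac2* (1.17 ± 0.31, limma adjusted *p* = 0.0167) and *Pcdhga1* rose, and *Pcdhga10* (-1.38 ± 0.42, limma adjusted *p* = 0.0282), *Pcdhgb2* (-1.05 ± 0.30, limma adjusted *p* = 0.0226), *Pcdhga11* and *Pcdhgc3* fell. Between libraries labelled mutant and control EB *Pcdhga8* (1.25 ± 0.30, limma adjusted *p* = 0.017) and *Pcdhac2* (1.24 ± 0.31, limma adjusted *p* = 0.0194) rose and *Pcdhb22* (-1.10 ± 0.35, limma adjusted *p* = 0.0472) fell, against 33.3% of all genes in either direction. *Pcdhga8* stood at 0.536 and 0.508 TPM in libraries labelled control EB and at 1.30 and 1.47 TPM in those labelled mutant EB. The feeder fibroblast list was highest in the libraries labelled control EB (449 to 475 TPM), against 188 to 191 TPM in those labelled control ESC, 69.5 to 69.6 TPM in mutant ESC and 91.3 to 93.7 TPM in mutant EB, and its part in these values was not tested.

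The members were also grouped by lists of RING1B binding from the study's ChIP-seq of ESCs and EBs, with genes that gained binding from ESCs to EBs (Group 1), kept it (Group 2) or lost it (Group 3). Group 1 held 7 members, which were *Pcdha8* to *Pcdha12*, *Pcdhgc3* and *Pcdhgc4*, Group 2 held 26, of which 16 were gamma genes, Group 3 held none, and 26 members were in no list. In the *Ring1A/B* line 15 of 24 tested Group 2 members rose between libraries labelled control EB and control ESC, against 0 of 7 in Group 1, 5 of 22 in no list and 28.6% of all genes. Between libraries labelled mutant EB and mutant ESC these counts were 19 of 24, 1 of 7 and 5 of 22, and 36.6% of all genes. By their deposited names both comparisons set mutant against control libraries of 1 stage, so these counts cannot be read as changes from ESCs to EBs. Between *Pcgf1*-KO and control EBs the medians of the log2 fold change were 0.08 in Group 1, 0.52 in Group 2 and 0.07 in no list. Most gamma genes are in Group 2 and most beta genes are in no list, so binding list and cluster cannot be told apart here.

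In the *Pcgf2/4*, *Pcgf3/5* and *Pcgf6* lines limma called 0 of 41, 37 and 49 members tested in every comparison by label. Of all genes 0.0% were called in the *Pcgf2/4* and *Pcgf6* lines, and in the *Pcgf3/5* line 0.0601% were called between EBs and ESCs labelled control, 0.0% between those labelled mutant, 0.0401% between ESCs labelled mutant and control and 0.0301% between EBs labelled mutant and control. At an unadjusted limma *p* under 0.05, and in this order of comparisons, the *Pcgf2/4* line had 1, 1, 0 and 1 members (1.24%, 1.49%, 0.862% and 0.987% of all genes). The *Pcgf3/5* line had 2, 0, 0 and 0 members (12.7%, 1.58%, 1.41% and 2.1% of all genes) and the *Pcgf6* line 2, 3, 0 and 1 members (5.38%, 5.72%, 0.599% and 1.03% of all genes). In the *Pcgf6* line 14 members were above 0 in 1 labelled group only, and without them its counts were 2, 2, 0 and 0 of 35. The gamma sum ranged from 3.94 to 9.40 TPM over the 8 libraries of the *Pcgf2/4* line, from 5.99 to 15.5 TPM in the *Pcgf3/5* line and from 1.51 to 17.2 TPM in the *Pcgf6* line. Within labelled groups of 2 it differed by up to 6.40 times, between 1.51 and 9.66 TPM in libraries labelled control ESC of the *Pcgf6* line. As 17 of these 24 libraries carry another condition in their file names, the lack of calls by label does not show that the members were alike in these lines.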

How the data were processed

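RNA-seq values of 59 libraries were used. The authors aligned reads with STAR (version 2.5.2b) to mm9 and deposited TPM per gene symbol, and how TPM was made from reads is not given in the sources used here. Every library sums to 1000000 TPM, so depth is unknown and no count test was possible. Groups follow the sample labels. All 1711 pairs of libraries were compared, and none was identical.

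For each line, the 4 groups entered 1 linear model of log2(TPM + 0.1) with limma's empirical Bayes trend (limma version 3.58.1, R version 4.3.3), and genes at 0 TPM throughout the line were left out. The fit was tested on simulated data. *P*-values were adjusted over all genes tested. Replicate numbers from the labels pair the *Pcgf1* libraries, since over 13400 genes every same-numbered pair from 2 of the groups correlated in its deviations from group means (r of 0.32 to 0.65). Differently numbered libraries ranged from -0.51 to 0.62, so the number is not the only thing libraries share. Where title and characteristics disagree on a replicate number (1 *Pcgf1*-KO EB library, 4 or 5), the title was used. The alternatives were a pseudocount of 1, a mean of at least 1 TPM, no filter, median-of-ratios scaling, a replicate block, only the groups compared, and leaving out each library. Leaving out the library series of replicates 2 and 3 and crossing the *Pcgf3/5* pairs were added after the data had been seen.

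Genes named are the C-type genes, the 3 members of each cluster with the highest mean TPM over the *Pcgf1* and *Ring1A*-pm; *Ring1B*-cpm lines, and the members called with the highest and lowest fold changes in each comparison (up to 5 each way in those lines and 3 in the others). Other genes named were chosen after their values were seen. The members and lists were chosen with earlier results of these data known. Tables and plots used Python (version 3.11.15), pandas (version 2.3.3), numpy (version 2.4.6) and matplotlib (version 3.10.9).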

Additional observations from a re-analysis of the deposited data

Results flagged for a closer look

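Over 18 measures and 72 groups of 4 or 5 libraries of the *Pcgf1* line, 11 values stood apart from the rest of their group by Dixon's test. For normally distributed values chance gives this in about 1 of 20 groups, a rate that does not hold for genes mostly at 0 TPM. *Pcdhac2* and the alpha sum were at 0 TPM in control ESC replicate 2, against 0.105 to 0.124 TPM in the others. These 2 flags hold the same values, since *Pcdhac2* was the only alpha gene above 0 in control ESCs. In replicate 3 its 0.105 TPM was the smallest member value above 0. *Pcdhgc4* was at 0.452 TPM in control ESC replicate 3 (others 0.169 to 0.194) and at 0.736 TPM in *Pcgf1*-KO ESC replicate 2 (others 0.0484 to 0.218). *Pcdhgb2* was at 0.0483 TPM in control ESC replicate 1 (others 0.245 to 0.275) and at 0.367 TPM in control EB replicate 3 (others 0.0623 to 0.132).

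The remaining values were of low alpha and beta genes. *Pcdha12* was at 0.0343 TPM in *Pcgf1*-KO ESC replicate 5, *Pcdhb2* at 0.0292 TPM in control ESC replicate 4 and *Pcdhb14* at 0.169 TPM in control EB replicate 2, with the rest of each group at 0. In such a group the test flags any single value above 0. *Pcdhb2* was at 0.858 TPM in *Pcgf1*-KO EB replicate 3 (others 0 to 0.0664) and *Pcdhb17* at 0.680 TPM in *Pcgf1*-KO EB replicate 2 (others 0 to 0.157).

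The log2 ratio of gamma sums within same-numbered pairs went the opposite way from the *Pcgf1* line in some lines by label, and the difference between lines was not tested. From control ESCs to control EBs it was -0.81 to -0.45 in the *Pcgf1* line, and at least 1.09 in the *Ring1A/B* line and 0.23 in the *Pcgf6* line. From mutant ESCs to mutant EBs it was -0.62 to -0.34 in the *Pcgf1* line, and at least 1.5 in the *Ring1A/B* line and 0.03 in the *Pcgf6* line. Between mutant and control ESCs it was 0.47 to 0.84 in the *Pcgf1* line, and its lowest value was -0.45 in the *Ring1A/B* line and -0.92 in the *Pcgf3/5* line, both pairs being below 0. The 3 lines that differ from the *Pcgf1* line are among those whose labels and file names disagree. Arranged by name and without a test, the gamma sum of the *Ring1A/B* line was 12.2 to 13.7 TPM in control ESCs, with control EBs below (10.1 to 11.1 TPM) and mutant ESCs above (29.3 to 30.7 TPM), and that of the *Pcgf6* line was 1.51 to 2.44 TPM in control EBs against 9.36 to 9.66 TPM in control ESCs, in each case the direction of the *Pcgf1* line. By name the mutant EBs of the *Ring1A/B* line (31.5 to 32.7 TPM) still lay above its mutant ESCs, those of the *Pcgf6* line (7.04 to 17.2 TPM) overlapped its mutant ESCs (9.56 to 11.3 TPM), and mutant (12.3 to 15.5 TPM) and control ESCs (14.6 TPM in both) of the *Pcgf3/5* line overlapped.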

How the results depend on the processing

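Counts of members called in the *Pcgf1* line, *Pcdha3* included, in the order EBs against ESCs in controls (1) and *Pcgf1*-KO cells (3) and *Pcgf1*-KO against control in ESCs (0) and EBs (1), were as follows. With a pseudocount of 1 the second count was 5 and the third 2, with median-of-ratios scaling the first was 2 and the third 1, and with a mean of at least 1 TPM every count was 0. That filter left most members untested, as only 3 of the 59 had such a mean over all libraries. With only the groups compared the first and the last were 0, and without the library series of replicates 2 and 3 the last was 0. With the replicate block they were 5, 8, 2 and 7. Leaving out single libraries gave 0 to 3, 2 to 4, 0 and 0 to 1, with the first count at 0 without control ESC replicate 3 and at 3 without control ESC replicate 1.

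In the *Ring1A*-pm; *Ring1B*-cpm line, where all counts were 0, the replicate block and median-of-ratios scaling each called *Pcdhgb6*, *Pcdhga10* and *Pcdhga12* lower in control EBs than ESCs (3), and 1 member was called in mutant ESCs with the block (*Pcdhb17*, limma adjusted *p* = 0.0383), with a pseudocount of 1 and with only the groups compared. Same-numbered libraries correlated in their deviations at 0.11 to 0.38 there, with 2 pairs for each combination of groups. Leaving out single libraries kept all counts at 0.

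In the *Ring1A/B* line, by label, a mean of at least 1 TPM gave 3, 5, 3 and 0 in place of 20, 25, 6 and 3, with most members left untested. A pseudocount of 1 gave 2 for the third and 6 for the last, and only the groups compared gave 3 for the third. Leaving out single libraries gave 12 to 14, 23 to 29, 3 to 6 and 2 to 6, with 3 for the third without the library labelled mutant ESC replicate 2 and 6 for the last without that labelled mutant EB replicate 2. Without a filter 1 member was called in each of 6 comparisons of the other lines (*Pcdha11*, *Pcdhb3* or *Pcdhb2*), leaving out a library labelled mutant EB of the *Pcgf6* line gave 0 to 1, and with only the groups compared 3 were called between EBs and ESCs labelled control of the *Pcgf3/5* line. Crossing the numbers of the *Pcgf3/5* pairs left 0 and 0 calls.

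No direction reversed under these alternatives, all of which keep the labels. Arranged by deposited names, as in the values given above, the gamma sum of the *Ring1A/B* line turned from higher to lower between control EBs and ESCs and from lower to higher between mutant and control ESCs. The block changed no other call by more than the bounds above. Depth, which is unknown, limits alpha and beta genes, most of which were at 0 in most libraries.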
